A study of Homo sapiens with 22 samples.

Results

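The loci of CD44 and of 9 integrin subunit genes (ITGA2, ITGA5, ITGA6, ITGAV, ITGAM, ITGAX, ITGB1, ITGB2 and ITGB7) were followed in K562 cells during exposure to a phorbol ester. Regions were chosen by position alone, as every interval of the authors' 4 region tables that overlapped the RefSeq span of one of the 10 genes (GRCh38.p14) or the 50 kb on either side of it, which is called the window of that gene here. This gave 531 of 409446 regions: 149 of 95436 for H3K27ac, 189 of 138731 for Jun, 63 of 66168 for CTCF and 130 of 109111 for Rad21. ITGAM and ITGAX are neighbours on chromosome 16, and their windows shared 3 H3K27ac, 11 Jun, 2 CTCF and 5 Rad21 regions. K562 is an established human leukemia line, labelled wild type throughout, and the cultures were exposed to 25 nM PMA for 0, 6 or 72 h to induce megakaryocyte differentiation. Chromatin was profiled with an assay whose short name in the titles, CNR, is read here as CUT&RUN and in which an antibody directs a nuclease to cut out the DNA beside its target, after fixation of the cells in 1% formaldehyde (10 min). H3K27ac (an acetyl mark of active promoters and enhancers), Jun (a subunit of the transcription factor AP-1) and CTCF (which binds insulators and loop anchors) were profiled at 0, 6 and 72 h, and Rad21 (part of cohesin, the ring that holds loops) at 0 and 72 h. Each of the 11 groups held 2 libraries (22 in all), and no label says that the replicates came from separate cultures, so p-values measure the spread between libraries, which may be technical.

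Integrins are membrane receptors built from an alpha and a beta subunit. They bind matrix proteins or receptors on other cells and connect them to the actin cytoskeleton, which lets cells attach and spread. The alpha subunit sets most of the ligand choice: with ITGB1 as partner, ITGA2 binds collagen, ITGA5 binds fibronectin and ITGA6 binds laminin, while ITGAV pairs with several beta subunits and binds fibronectin and vitronectin. ITGB2 is the beta subunit of the leukocyte integrins and pairs with ITGAM and ITGAX. ITGB7 pairs with alpha subunits of homing lymphocytes. CD44 is a receptor for hyaluronan whose tail is tied to actin by ezrin, radixin and moesin. PMA activates protein kinase C, AP-1 is a classical target of that pathway, and K562 cells are known to adhere and spread under PMA.

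The 250 bases upstream of the RefSeq start were read from a RefSeq promoter table (GRCh38.p14), which held 11 entries for 8 of the 10 genes. ITGAX and ITGB2 were not in it. The 4 promoters below are shown because the deposited regions lie over or beside them and changed in different ways: Jun signal was higher over the CD44 promoter, H3K27ac over the ITGA5 and ITGAV promoters was already present at 0 h, and H3K27ac beside the ITGA2 promoter appeared under PMA. Each is written 5′ to 3′ on the strand of the gene, and capitals mark the GC box GGGCGG or its reverse complement CCGCCC.
CD44, chr11:35138921-35139170, plus strand: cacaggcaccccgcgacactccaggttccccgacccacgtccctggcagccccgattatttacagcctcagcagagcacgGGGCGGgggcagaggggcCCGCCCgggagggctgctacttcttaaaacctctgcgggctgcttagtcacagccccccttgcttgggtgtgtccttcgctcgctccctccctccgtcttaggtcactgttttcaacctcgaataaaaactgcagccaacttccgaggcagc
ITGA2, chr5:52989102-52989351, plus strand: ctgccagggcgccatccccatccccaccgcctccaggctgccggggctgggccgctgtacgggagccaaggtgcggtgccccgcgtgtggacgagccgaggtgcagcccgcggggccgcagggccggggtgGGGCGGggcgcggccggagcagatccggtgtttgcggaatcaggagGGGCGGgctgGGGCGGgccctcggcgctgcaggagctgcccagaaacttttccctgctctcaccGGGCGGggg
ITGA5, chr12:54419267-54419516, minus strand: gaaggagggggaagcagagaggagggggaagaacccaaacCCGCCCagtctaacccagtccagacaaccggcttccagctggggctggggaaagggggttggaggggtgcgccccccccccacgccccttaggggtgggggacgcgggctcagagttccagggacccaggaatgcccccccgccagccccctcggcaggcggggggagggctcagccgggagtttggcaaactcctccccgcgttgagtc
ITGAV, chr2:186589806-186590055, plus strand: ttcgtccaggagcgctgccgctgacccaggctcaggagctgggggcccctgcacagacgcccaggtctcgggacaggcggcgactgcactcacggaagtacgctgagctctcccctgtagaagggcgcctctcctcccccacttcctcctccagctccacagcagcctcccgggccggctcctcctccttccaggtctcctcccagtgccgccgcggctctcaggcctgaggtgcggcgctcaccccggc
The ITGA2 promoter held 4 GC boxes, the CD44 promoter 2, the ITGA5 promoter 1 and the ITGAV promoter 0, and 42.64% of the 35116 promoters in the table held at least 1. The AP-1 core TGANTCA, which reads the same on both strands, was in 6.573% of all promoters and in 0 of the 11 entries of these genes, which says only that these letters are absent from these windows.

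The H3K27ac libraries held 12634261 to 27266241 counts in regions, the Jun libraries 4766421 to 18883962, the CTCF libraries 2553677 to 6068421 and the Rad21 libraries 4398797 to 7285286. Values are CPM, counts scaled to library size after edgeR's TMM scaling, as mean ± SD over 2 libraries, and "called" means an adjusted p under 0.05 in edgeR's quasi-likelihood test over all regions or gene windows of a table. As markers of the line, the H3K27ac regions over the erythroid genes KLF1 and GATA1 summed to 174 to 181 and 98.5 to 99.5 CPM at 0 h, while those over CD3E (T cells) summed to 4.71 to 6.69 CPM and ALB and KRT5 had no region. The 3 erythroid windows (GATA1, KLF1 and HBG1) were all lower for H3K27ac at 72 h. Each library pools many cells, so fewer cells with a signal and less signal per cell cannot be told apart. The comparisons of 6 and of 72 h use the same 0 h libraries, and their values are given side by side only.

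H3K27ac rose over most of these loci. At 6 h against 0 h, 110 of 149 regions were called, 83 higher and 27 lower (all regions: 58.9%, with 32.4% higher and 26.5% lower). At 72 h against 0 h, 123 were called, 96 higher and 27 lower (all regions: 81.5%, with 43.5% higher and 38.0% lower). The share called at 72 h was thus close to that of the whole table, and the direction was not: 64.4% of the regions near these genes were higher. Their median log2 fold change was 1.16 at 6 h and 1.77 at 72 h, against 0.19 and 0.18 over all tested regions. Between 6 and 72 h, 74 were higher and 24 lower (all regions: 63.9%, with 33.2% higher).

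Jun signal also moved upward on balance. At 6 h, 61 of the 187 Jun regions tested passed, 47 of them higher and 14 lower (25.5% of all), and at 72 h 111 were called, 80 higher and 31 lower (53.7% of all, with 28.0% higher and 25.8% lower). Without 72 h replicate 2 the count at 72 h was 72, and DESeq2 called 38 at 6 h. The median log2 fold change at 72 h was 0.68 near these genes and 0.17 over all regions. Scaling matters for Jun: by total counts in regions 91.0% of the calls at 72 h were higher, against 72.1% with TMM, and the median of all regions moved from 0.17 to 0.73. The mitochondrial share of the Jun counts fell with time, from 24.0 to 27.7% at 0 h to 18.1 to 21.3% at 6 h and 8.58 to 9.07% at 72 h, and its part in the Jun values was not tested.

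**Figure D1:**
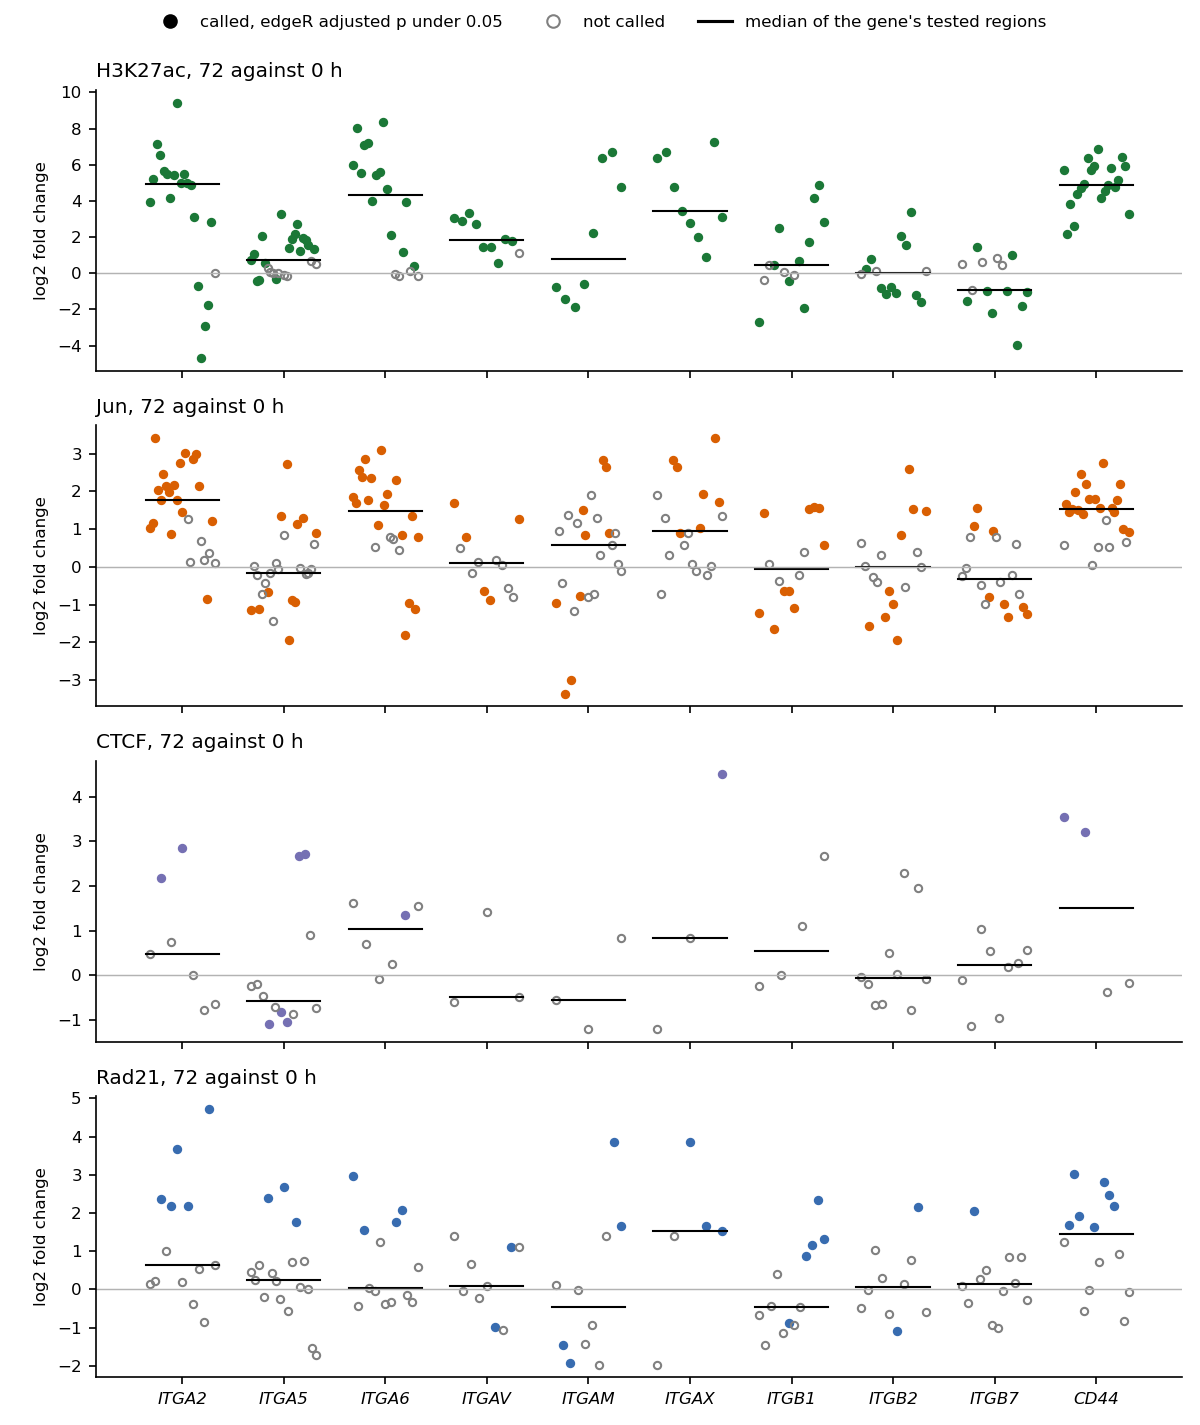
Log2 fold change at 72 h against 0 h (vertical axis) of every tested region in the window of each gene (horizontal axis), for H3K27ac, Jun, CTCF and Rad21 from top to bottom. Each point is 1 region, filled where edgeR's adjusted p is under 0.05 and open otherwise, and black lines are the medians. All 20 H3K27ac regions of CD44 lie above 0, those of ITGB7 lie mostly below it, and those of ITGA2 and ITGB1 spread to both sides.

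CD44, the hyaluronan receptor, gained signal at all of its H3K27ac regions. The H3K27ac sum over its window was 18.9 and 18.6 CPM in the 0 h libraries, 103 and 99.3 CPM at 6 h and 322 and 344 CPM at 72 h. The libraries of the 3 times did not overlap, and the sum rose at each step. The log2 fold change was 2.43 (SE 0.078) at 6 h and 4.15 (SE 0.076) at 72 h (edgeR adjusted p = 2.97e-35). Of the 10 windows 7 were called at 6 h, 4 higher and 3 lower (all gene windows: 76.6%, with 27.1% higher and 49.5% lower). At 72 h 9 were called, 8 higher and 1 lower (all gene windows: 88.2%, with 35.1% higher and 53.1% lower). All 20 regions were called higher at both times, 7 inside the gene and 13 in the flanks, with a median log2 fold change at 72 h of 4.91.

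The CD44 regions lay from far upstream to beyond the end of the gene. The region of largest change that met the naming rule, chr11:35116976-35117476, lay 21.9 kb upstream of the start and held 2 and 5 counts at 0 h, 54 and 72 after 6 h, then 438 and 447 after 72 h (log2 fold change 6.35, SE 0.31). The region next to the start, chr11:35139640-35139912, rose from 0.30 ± 0.023 to 3.73 ± 0.062 and 5.39 ± 0.36 CPM. A broader region past the end of the gene was not picked by that rule and is named after its values were seen: chr11:35235328-35237152 rose from 0.910 ± 0.32 to 10.1 ± 0.52 and 54.9 ± 4.7 CPM. At 0 h, chr11:35110699-35111722, upstream of the gene, was the only H3K27ac region of the CD44 window with an authors' peak in both libraries, and at 72 h 7 regions had such peaks.

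Jun signal over the CD44 window was 72.7 and 77.8 CPM at 0 h, 158 and 175 after 6 h, then 210 and 201 after 72 h. It was already higher in both 6 h libraries, with a log2 fold change of 1.45 (SE 0.10) at 72 h (edgeR adjusted p = 6.47e-16). Of 24 tested Jun regions 12 were higher at 6 h and 18 at 72 h, and 0 were lower at either time. The Jun region chr11:35138853-35139118 covers 198 of the 250 promoter bases printed above and rose from 2.01 ± 0.18 to 6.39 ± 0.55 and 5.34 ± 0.14 CPM. The largest called change was at chr11:35166643-35167130, 27.7 kb downstream of the start, with 1.01 ± 0.42, 8.95 ± 1.5 and 6.90 ± 0.11 CPM. There and at the promoter the 6 h means were the higher of the later times.

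**Figure D2:**
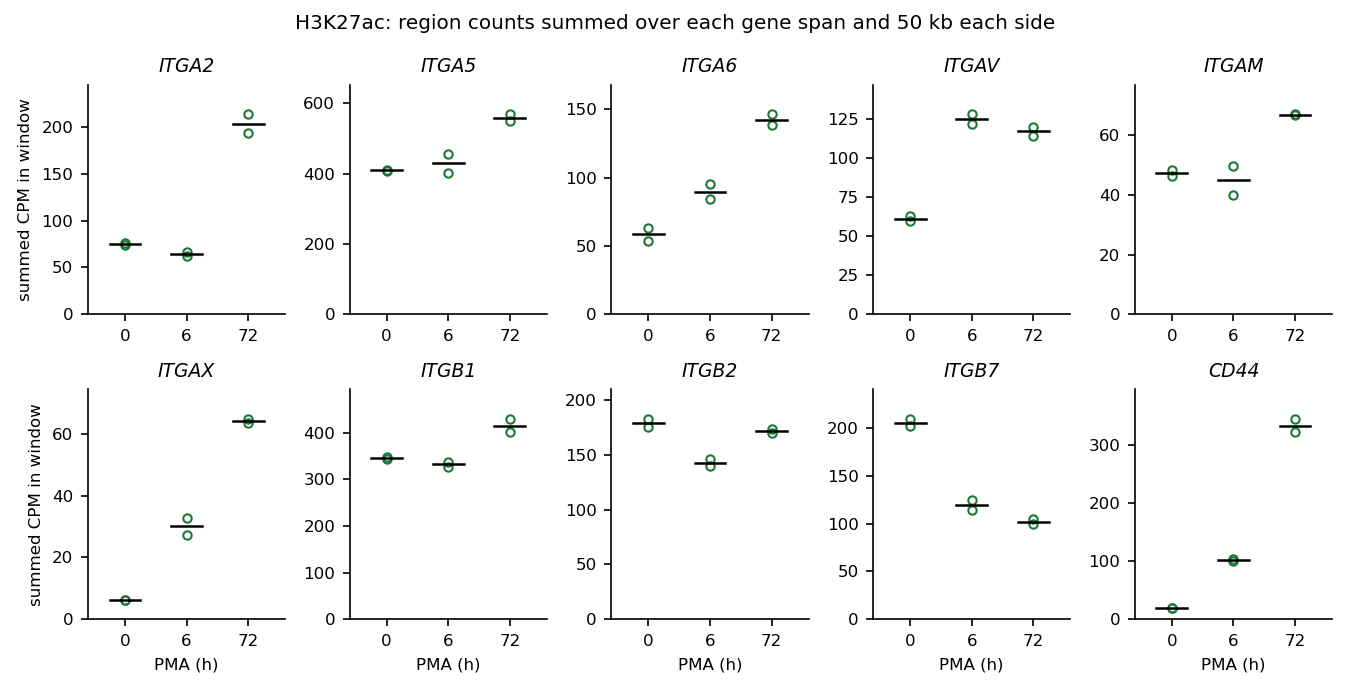
H3K27ac counts summed over the window of each gene (vertical axis, CPM, starting at 0, with its own scale in each panel) at 0, 6 and 72 h of PMA (horizontal axis). Circles are the 2 libraries of each time and lines their means. CD44 and ITGAX climb at each step, ITGAV is at 125 CPM at 6 h and 117 CPM at 72 h, and ITGB7 falls.

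ITGA2, the collagen-binding subunit, had the largest median H3K27ac change inside the gene at 72 h, just above ITGA6 (log2 fold change 5.13). At 6 h its median inside the gene (2.30) was below those of CD44 (3.61) and ITGA6 (3.18), among others. All 10 H3K27ac regions within its span were higher at 72 h, with a median log2 fold change of 5.22, and 9 of them were higher at 6 h. Just upstream, chr5:52987071-52988748 lay 1.44 kb before the start and held 4 and 10 counts at 0 h, 94 and 71 after 6 h, then 896 and 1100 after 72 h. The log2 fold change was 3.65 (SE 0.40) at 6 h and 6.54 (SE 0.30) at 72 h. A further region in the gene, chr5:53020840-53021070, had 0 counts in both 0 h libraries and 105 and 122 at 72 h, at least 50.3-fold higher, taking 3 counts over the 0 h group as the floor.

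The window sum of ITGA2 did not show this at 6 h. It was 74.0 and 76.6 CPM at 0 h, 66.7 and 62.5 after 6 h, then 193 and 213 after 72 h, lower at 6 h (log2 fold change -0.22, SE 0.072) and higher at 72 h (1.43, SE 0.067). Inside the gene span alone the 6 h value was 2.21, and by total counts the window value was 0.11, so the direction at 6 h depended on the part of the window summed and on the scaling, and without 0 h replicate 2 (-0.20) it was not called. The region chr5:53108800-53110822 over the neighbouring gene MOCS2 held 34.1 ± 3.8 of the 75.3 ± 1.9 CPM at 0 h and went to 26.7 ± 1.2 and 20.5 ± 0.83 CPM. Further on, chr5:53117400-53118383 fell from 217 and 219 counts to 41 and 82 and then to 11 and 14, a log2 fold change of -4.70 (SE 0.27) at 72 h.

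Jun at ITGA2 rose mainly after 6 h. Its window sum was 59.2 and 69.8 CPM at 0 h, 85.4 and 92.5 after 6 h, then 182 and 178 after 72 h, with log2 fold changes of 0.47 (SE 0.11) and 1.48 (SE 0.097, edgeR adjusted p = 1.50e-16). Jun windows were called for 5 of the 10 genes at 6 h, all higher, and for 5 at 72 h, 3 higher and 2 lower (51.6% and 76.6% of all gene windows, with 28.4% higher and 48.2% lower at 72 h). Between 6 and 72 h 2 Jun windows were higher with TMM, ITGA2 (1.02) and CD44 (0.30). With TMM 4 were lower, ITGA5 (-0.37), ITGAV (-0.41), ITGAM (-0.21, edgeR adjusted p = 0.049) and ITGB1 (-0.28). Of all gene windows 20.2% were higher and 38.2% lower. The scaling matters here too: between 6 and 72 h the median of all Jun regions moved from 0.022 with TMM to 0.38 by total counts. Inside ITGA2, 13 of 15 tested Jun regions were higher at 72 h, against 3 at 6 h. The region with the largest change, chr5:52985351-52985801, rose from 0.94 ± 0.090 to 3.40 ± 0.33 and 10.1 ± 0.46 CPM (6 and 7, 14 and 20, then 220 and 231 counts). Its log2 fold change at 72 h was 3.42 (SE 0.35).

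ITGA6, the laminin-binding subunit, had higher H3K27ac upstream of and within the gene, and no H3K27ac region lay over the start itself. The window sum was 53.9 and 63.3 CPM at 0 h, 95.3 and 83.9 after 6 h, then 138 and 146 after 72 h, and the libraries of the 3 times did not overlap. The log2 fold change was 0.61 (SE 0.078) at 6 h and 1.28 (SE 0.076) at 72 h. At 72 h 14 of 18 regions were higher and 0 lower, with a median of 4.32, or 4.11 with the 2 regions that had 0 counts at 0 h set to their bound. The named region, chr2:172396349-172397757, lay 30.3 kb upstream and held 4 and 2, then 8 and 14, then 608 and 778 counts (log2 fold change 7.21, SE 0.30).

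The Jun window sum of ITGA6 was not called at 72 h (172 ± 21.4 CPM at 0 h and 170 ± 1.97 at 72 h, edgeR adjusted p = 0.905, a value that turns from -0.014 to 0.55 by total counts), although 15 of its 22 regions were higher and 3 lower. A large share of the sum lay in a region over PDK1-AS1, chr2:172508119-172508499, past the end of ITGA6. The start and end of this region are the same for H3K27ac, Jun, CTCF and Rad21. Whether its counts reflect binding was not tested. Jun there was 55.2 ± 20.1 CPM at 0 h, 71.4 ± 15.7 at 6 h and 15.8 ± 1.26 at 72 h (log2 fold change -1.80, SE 0.22). Inside the gene span alone the Jun log2 fold change at 72 h was 1.42. The largest called rise, chr2:172438012-172438461, was in the gene, 10.9 kb from the start, with 1 and 10 counts at 0 h but 156 and 150 after 72 h. In CPM this was 0.79 ± 0.91 and 6.86 ± 0.74 (log2 fold change 3.10, SE 0.47).

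**Figure D3:**
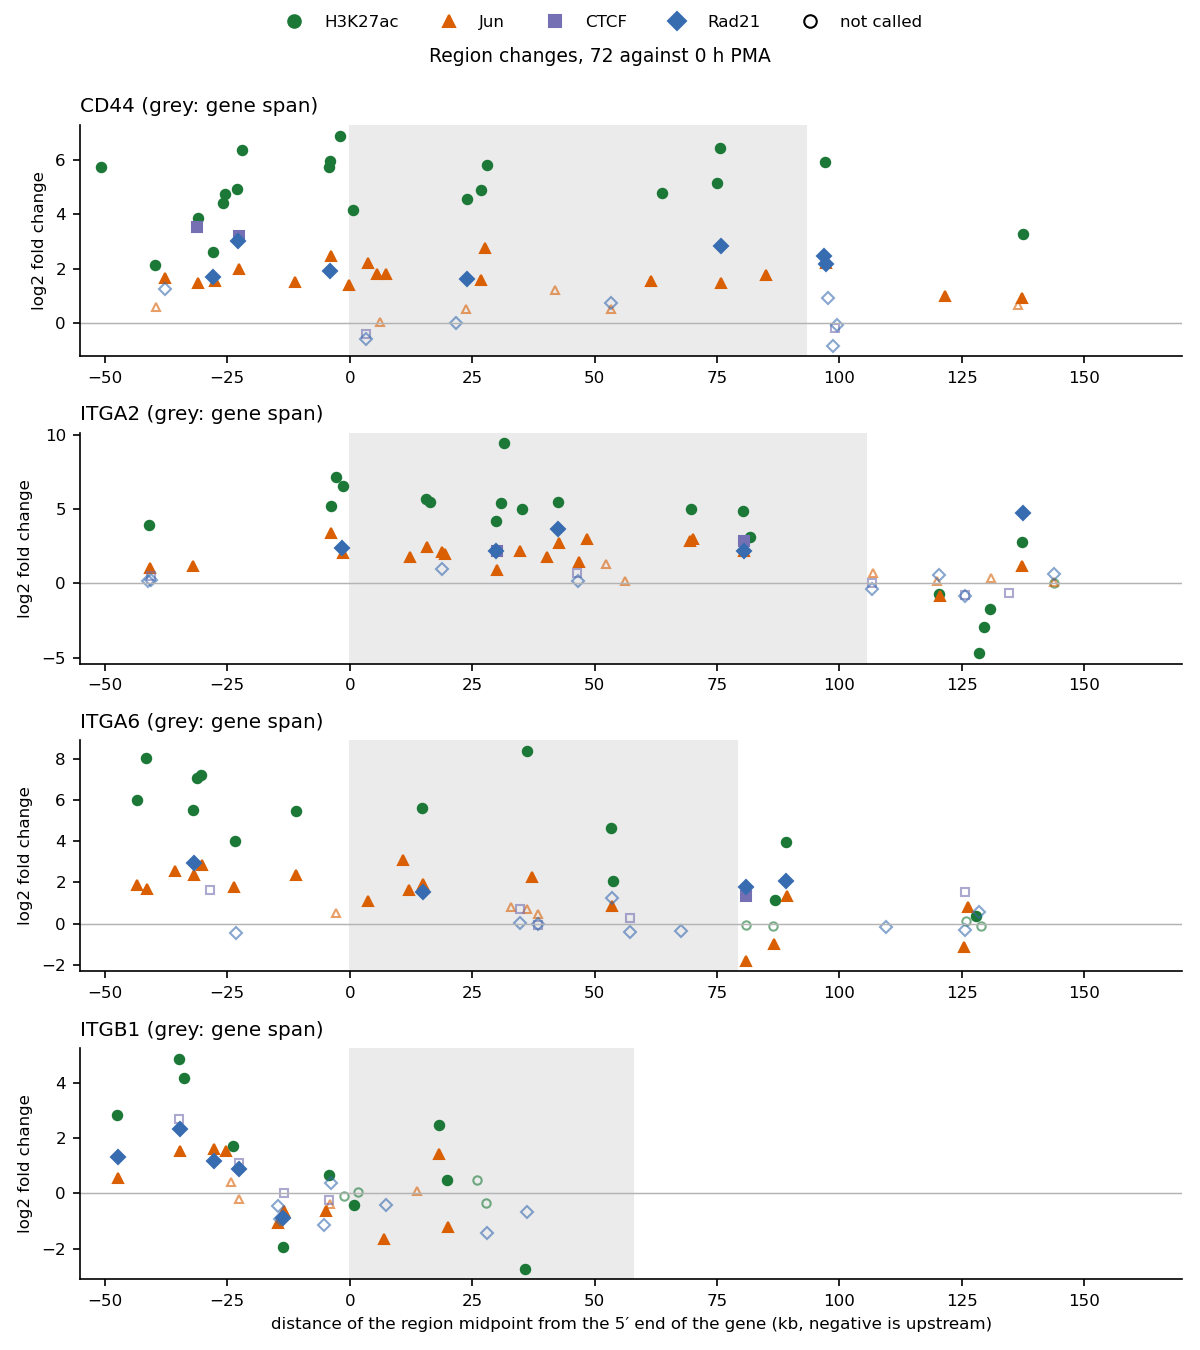
Log2 fold change at 72 h against 0 h (vertical axis) of each tested region by the distance of its midpoint from the 5′ end of the gene (horizontal axis, kb, negative upstream) for CD44, ITGA2, ITGA6 and ITGB1. Colour and shape give the antibody, open symbols were not called, and grey marks the gene. H3K27ac is higher along and upstream of CD44, ITGA2 and ITGA6, and for ITGA2 it is lower in a cluster of regions past the 3′ end.

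ITGA5, the fibronectin receptor subunit, had H3K27ac over its promoter at 0 h. The promoter region chr12:54418522-54419930 held 46.9 ± 1.9 CPM of H3K27ac at 0 h, 38.0 ± 6.5 at 6 h and 42.9 ± 1.1 at 72 h. At 6 h it was called lower (log2 fold change -0.30, SE 0.11), a sign that turns by total counts. It was not called at 72 h (-0.13, SE 0.11), a value whose sign turns to 0.41 with loess offsets and to 0.48 with factors set on regions that carried peaks throughout. A region 7.74 kb into the gene, chr12:54411004-54412044, was called higher at both times: it held 40 and 30 counts at 0 h, 153 and 209 after 6 h, then 525 and 486 after 72 h (log2 fold change 2.45 and 3.26). Jun at the same place, chr12:54411209-54411810, rose from 2.31 ± 0.64 to 11.7 ± 3.2 and 15.2 ± 0.072 CPM. Over the promoter, Jun was lower with TMM scaling. The region chr12:54419058-54419487, which covers 221 of the bases printed above, went from 11.7 ± 2.0 to 6.37 ± 0.23 CPM at 72 h (log2 fold change -0.87). This region is named after its values were seen, and the one the naming rule picked beside it, chr12:54420392-54420845, had a log2 fold change of -0.94 that was -0.38 and not called by total counts.

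The wider ITGA5 window rose in H3K27ac from 408 and 411 CPM at 0 h to 549 and 568 CPM at 72 h, with 402 and 456 CPM at 6 h. The 72 h libraries lay above all others, and the log2 fold change of 0.45 (SE 0.082) was called, while 0.067 at 6 h was not. Of 22 regions in the flanks, over genes such as COPZ1 and ZNF385A, 13 were higher and 3 lower at 72 h. The Jun sum over the window was not called at either time.

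ITGAV, the subunit of vitronectin receptors, had the H3K27ac gain of its window sum by 6 h. The window sum was 59.6 and 62.5 CPM at 0 h, 122 and 128 after 6 h, then 114 and 120 after 72 h. The 0 h libraries lay below all others, and the difference between 6 and 72 h was not called (log2 fold change of 72 against 6 h -0.093, SE 0.065, edgeR adjusted p = 0.197). Single regions moved both ways between 6 and 72 h. Inside the gene 2 of 3 were lower and 0 higher, and of 7 in the flanks 2 were higher and 1 lower. The promoter region chr2:186589290-186592092 covers all 250 bases printed above and went from 49.7 ± 2.3 to 78.9 ± 8.9 and 74.9 ± 3.0 CPM. The Jun window sum was called higher at 6 h (log2 fold change 0.38, SE 0.11) and was not called at 72 h. Of 5 tested Jun regions inside the gene, 1 was higher at 6 h and 1 was lower at 72 h. The lower one, chr2:186590821-186591645, held 35.2 ± 4.3 CPM at 0 h, 41.0 ± 7.2 at 6 h and 19.0 ± 0.20 at 72 h. Its fall at 72 h (log2 fold change -0.89) was not called by total counts.

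Among the leukocyte integrins, ITGAX, the alpha subunit of complement receptor CD11c/CD18, gained signal at both times. Its H3K27ac window sum was 6.25 and 6.06 CPM at 0 h, 32.9 and 27.2 after 6 h, then 63.7 and 64.8 after 72 h, and the libraries of the 3 times did not overlap. The log2 fold change was 2.28 (SE 0.13) at 6 h and 3.38 (SE 0.12) at 72 h (edgeR adjusted p = 2.06e-26), and all 9 regions were higher at 72 h. At the start of the gene, chr16:31354177-31355576, named after its values were seen, held 18 and 20 counts at 0 h, 170 and 190 after 6 h, then 743 and 807 after 72 h. Jun over the window went from 48.5 ± 0.79 CPM to 94.4 ± 2.5 at 6 h and 96.9 ± 1.6 at 72 h. The Jun sum was called higher at 6 h (0.96, SE 0.10), and the difference between 72 and 6 h was not called (0.037, SE 0.091, edgeR adjusted p = 0.744).

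ITGAM, the alpha subunit of complement receptor CD11b/CD18, shared the rising side of its window with ITGAX. The region chr16:31351857-31352584 lies between both genes and held 3 and 1 counts of H3K27ac at 0 h, 84 and 61 after 6 h, then 346 and 312 after 72 h (log2 fold change 6.69, SE 0.41). On the other side of ITGAM, chr16:31228457-31231025 over TRIM72 fell from 27.3 ± 0.75 to 7.39 ± 0.43 and 10.1 ± 0.11 CPM. Jun over TRIM72, chr16:31229962-31230786, fell from 17.4 ± 2.1 to 2.86 ± 0.84 and 1.68 ± 0.17 CPM (130 and 111, 10 and 19, then 38 and 37 counts). The log2 fold change there was -3.36 (SE 0.26) at 72 h. With both sides summed, the H3K27ac window of ITGAM was 47.5 ± 1.5 CPM at 0 h, 45.0 ± 6.9 at 6 h and 67.0 ± 0.096 at 72 h (log2 fold change 0.49, SE 0.084), and 4 regions were higher and 4 lower.

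ITGB2, their beta partner, rose within the gene while its flanks fell. All 3 H3K27ac regions inside the span were higher at 72 h, led by chr21:44926385-44928393 near one end of the gene with 44 and 46 counts at 0 h, 157 and 204 after 6 h, then 653 and 746 after 72 h (log2 fold change 3.36, SE 0.17). Of 11 flank regions 2 were higher and 6 lower, such as chr21:44940038-44941356 over SLX9 (-1.61, SE 0.14). The window sum was 179 ± 4.8, 143 ± 4.3 and 172 ± 2.5 CPM at 0, 6 and 72 h and was not called at 72 h (-0.060, SE 0.061), a sign that turns to 0.17 by total counts and to 2.90 in the gene span alone. For Jun, chr21:44926374-44926867 in the gene rose from 7 and 4 counts at 0 h to 123 and 93 at 72 h and chr21:44854307-44855463 over PTTG1IP fell (-1.56, SE 0.17).

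**Figure D4:**
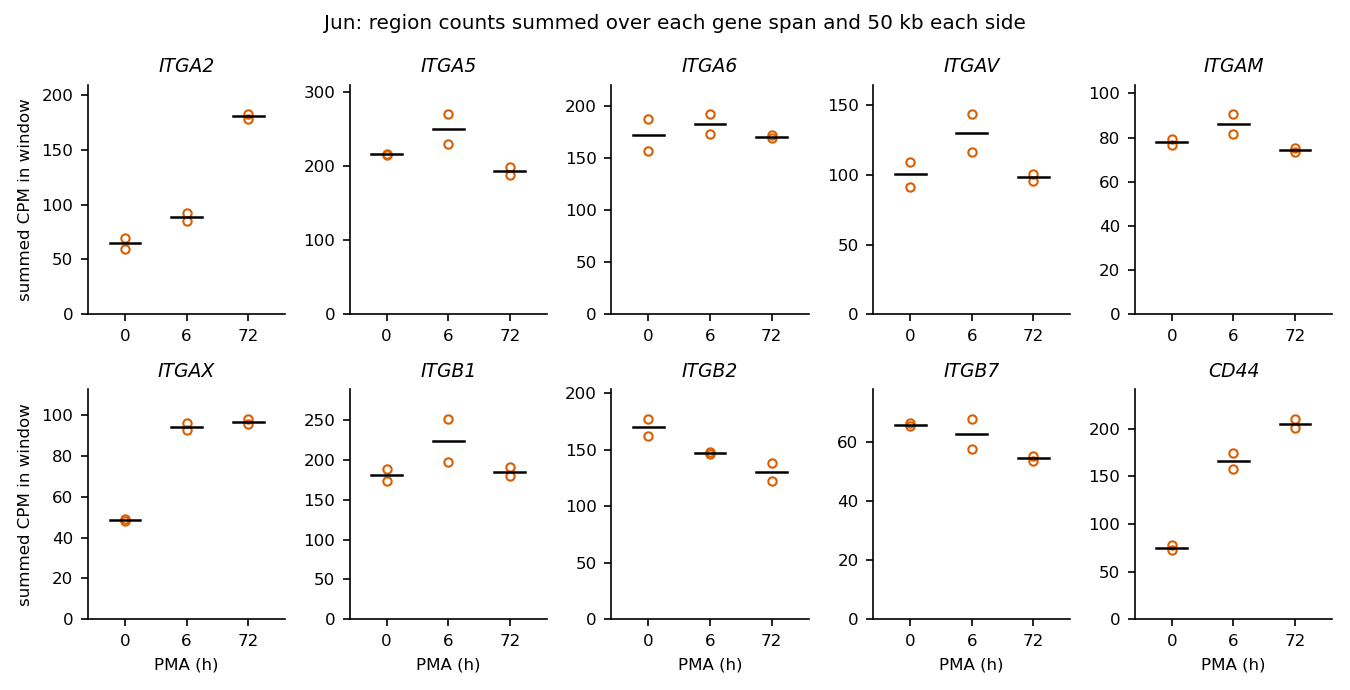
Jun counts summed over the window of each gene (vertical axis, CPM, starting at 0, with its own scale in each panel) at 0, 6 and 72 h of PMA (horizontal axis). Circles are the 2 libraries and lines their means. The CD44 and ITGAX sums are higher in both later times and ITGA2 mainly at 72 h, while the lower 72 h sums of ITGB2 and ITGB7 turn to higher by total counts.

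ITGB1, the partner of most matrix-binding alpha subunits, had H3K27ac at the edge of its promoter at all 3 times. The region chr10:32958452-32960536, which covers 29 of the 250 promoter bases, held 91.7 ± 5.1 CPM at 0 h, 73.0 ± 12.4 at 6 h and 86.1 ± 6.4 at 72 h. At 6 h it was called lower (-0.33, SE 0.11), a sign that turns by total counts, and had a peak in 1 of the 2 libraries. It was not called at 72 h (-0.092, SE 0.11, turning to 0.51 with factors set on regions that carried peaks throughout). Around it the changes ran both ways. In the gene, chr10:32921845-32923171 fell from 391 and 425 counts to 123 and 153 and then 103 and 83 (log2 fold change -2.72, SE 0.16). Upstream, over the divergent transcript ITGB1-DT, chr10:32992305-32993857 rose from 18 and 17 counts to 75 and 84 and then 730 and 830 (4.88, SE 0.21).

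The window sum of ITGB1 was 344 and 349 CPM at 0 h, 327 and 338 after 6 h, then 402 and 429 after 72 h. The 72 h libraries lay above the others, and the log2 fold change of 0.26 (SE 0.077, edgeR adjusted p = 0.00196) was the smallest of the 9 windows called, whose call was lost without 72 h replicate 2 (0.21) and whose sign turns to -0.49 in the gene span alone. Jun within the gene was lower at chr10:32950965-32951543, with 15.6 ± 1.8, 6.41 ± 0.44 and 4.96 ± 0.68 CPM (log2 fold change at 72 h -1.65, SE 0.22), and higher upstream at chr10:32985737-32986208 (1.59, SE 0.26).

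ITGB7, the lymphocyte subunit, had the only H3K27ac window called lower at 72 h, and most regions of that window lay in the flanks. Its H3K27ac window sum was 202 and 210 CPM at 0 h, 115 and 125 after 6 h, then 105 and 99.5 after 72 h. The libraries of 0 h lay above all others, and the log2 fold change was -0.78 (SE 0.064) at 6 h and -1.01 (SE 0.064) at 72 h (edgeR adjusted p = 6.95e-18). Of 14 regions 2 were higher and 7 lower at 72 h. Inside the gene 1 of 2 regions was lower, and in the flanks 6 of 12 were lower and 2 higher. The regions that the naming rule picked within 1 kb of the promoter did not overlap it. H3K27ac at chr12:53205902-53206213, 1.19 kb into the gene, was low at 0 h (12 and 6 counts) and at 72 h (28 and 21). It was not called at 72 h (0.84, SE 0.62). Jun at chr12:53205786-53206250 was called higher at 72 h (0.95, SE 0.39). In the gene, chr12:53200597-53201897 fell from 15.5 ± 0.37 to 5.48 ± 0.039 and 3.34 ± 0.45 CPM. The Jun sum was 65.7 ± 0.73 CPM at 0 h and 54.4 ± 1.1 at 72 h (-0.27, SE 0.098), a small fall that turns to 0.29 by total counts.

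**Figure D5:**
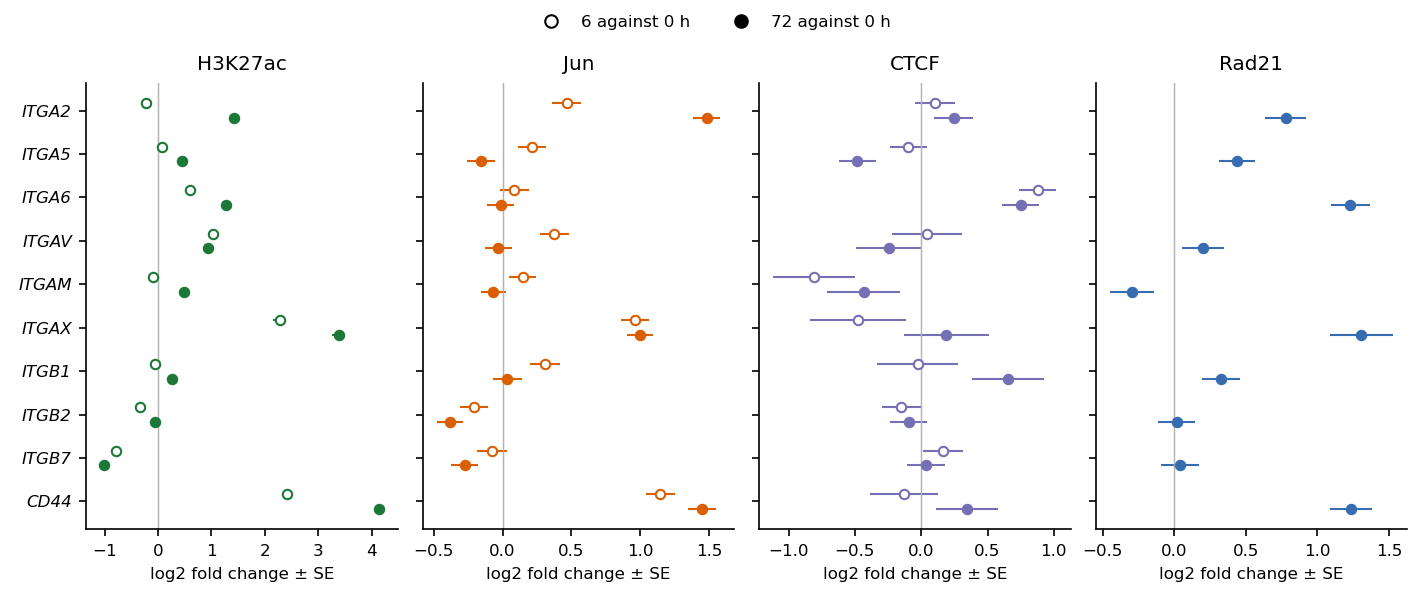
Log2 fold change of the summed window counts (horizontal axis, bars are ± SE from edgeR) at 6 h (open circles) and 72 h (filled circles) against 0 h for the 10 genes and 4 antibodies. Both times share the 0 h libraries, and Rad21 was not profiled at 6 h. H3K27ac reaches 4.15 for CD44 and -1.01 for ITGB7, and the Rad21 values of ITGA6, ITGAX and CD44 lie between 1.23 and 1.31.

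CTCF was called at a smaller share of these regions than the other antibodies, and its calls at 72 h were not stable. At 6 h, 1 of 58 tested regions was called, higher (2.64% of all, with 2.31% higher and 0.327% lower). At 72 h 11 were called (19.0%), 8 higher and 3 lower (6.84% of all, with 4.02% higher and 2.83% lower). The count at 72 h was 1 with DESeq2, 0 without 0 h replicate 1, 0 h replicate 2 or 72 h replicate 2, 1 without 72 h replicate 1 and 18 without either 6 h library, and the call at 6 h was lost without either 0 h library. The mitochondrial share of the CTCF counts was 17.8 to 22.1% at 0 h, 20.4 to 30.5% at 6 h and 9.55 to 9.63% at 72 h, and its part in the CTCF values was not tested. The call at 6 h was the region over PDK1-AS1, chr2:172508119-172508499, beyond ITGA6: 166 and 132 counts at 0 h, 429 and 316 after 6 h, then 400 and 979 after 72 h, or 44.5 ± 3.7, 132 ± 7.2 and 114 ± 31.7 CPM (log2 fold change 1.57, SE 0.30, and 1.36, SE 0.30). The ITGA6 window, which holds it, was called higher at both times (0.88 and 0.75). Of the ITGA6 CTCF sum, the PDK1-AS1 region held 44.5 of 122 CPM at 0 h. It held 132 of 225 CPM at 6 h and 114 of 205 CPM at 72 h. The ITGA5 window was lower at 72 h (-0.48, SE 0.14). CTCF windows were called for 1 of the 10 genes at 6 h and for 2 at 72 h (5.86% and 24.4% of all).

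The 3 lower CTCF regions were all at ITGA5, and no lower call was made by total counts, with loess offsets, with factors set on regions that carried peaks throughout or with DESeq2. The naming rule picked chr12:54370431-54370674, over ZNF385A, with 18.7 ± 1.7, 19.4 ± 3.9 and 8.71 ± 0.066 CPM (log2 fold change -1.10, SE 0.29, edgeR adjusted p = 0.033). Its call was lost under each of the other scalings tried, with DESeq2 and without any 1 of the 0 h and 72 h libraries.

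Rad21 rose at 29 and fell at 5 of 111 tested regions at 72 h (23.2% of all were called, 15.4% higher and 7.8% lower). Without 72 h replicate 1 or replicate 2 the count of 34 calls was 18 or 19, and DESeq2 called 17. The mitochondrial share of the Rad21 counts was 24.8 to 34.1% at 0 h and 30.1 to 30.6% at 72 h, and its part was not tested either. At the PDK1-AS1 region Rad21 went from 495 and 330 counts to 1497 and 1494, or 71.5 ± 5.6 to 245 ± 40.3 CPM (log2 fold change 1.77, SE 0.23). This Rad21 region is named after its values were seen. At this place CTCF and Rad21 were higher at 72 h, Jun was lower, and H3K27ac was not called (-0.065, SE 0.42). The interval has the same start and end for all of these antibodies. Why the edges coincide was not tested, so these values are not read as opposite changes in binding. The largest named rise was upstream of CD44, chr11:35116004-35116571, with 10 and 7 counts at 0 h but 83 and 68 after 72 h (3.02, SE 0.39), which overlaps neither the gene nor the printed promoter.

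Rad21 windows were called higher for 5 of the 10 genes and lower for 0 (all gene windows: 31.2%, with 15.5% higher and 15.7% lower). The log2 fold changes were 1.31 (SE 0.22) for ITGAX, 1.23 (SE 0.15) for CD44, 1.23 (SE 0.14) for ITGA6, 0.78 (SE 0.14) for ITGA2 and 0.44 (SE 0.13) for ITGA5. For ITGA6, the PDK1-AS1 region held 71.5 of the 134 CPM at 0 h and 245 of the 315 CPM at 72 h, the median log2 fold change of its Rad21 regions was 0.034, and 1 of 6 regions inside the gene was higher. The CD44 sum was 24.9 and 35.6 CPM at 0 h and 69.3 and 71.3 CPM at 72 h. Inside ITGA5, chr12:54411323-54411847 rose from 10 and 10 counts to 91 and 53 (2.69, SE 0.39), at the same place as the H3K27ac and Jun gains given above. Upstream of ITGB1, chr10:32992537-32993267 rose from 23 and 2 counts to 89 and 47 (2.34, SE 0.47), where the 0 h libraries differ widely.

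The antibodies can be set beside each other region by region, since they come from different libraries. At 72 h, 58 H3K27ac regions near these genes overlapped a Jun region called higher by at least 1 bp, and 54 of them (93.1%) were higher in H3K27ac and 0 lower. Over all regions the share was 96.8%. Of 27 that overlapped a lower Jun region, 15 were lower in H3K27ac (55.6%, against 71.2% over all regions) and 8 were higher. These counts depended on the scaling. By total counts 8 regions overlapped a lower Jun region, of which 5 were lower in H3K27ac (62.5%, against 74.2% over all) and 1 was higher. At 6 h, 32 of 32 regions over a higher Jun region were higher in H3K27ac (85.0% over all). Rad21 was higher at 24 of 36 regions over a higher Jun region (66.7%, against 68.6%) and at 7 of 7 over a higher CTCF region (70.2% over all). Some of these CTCF regions were near the floor at 0 h. For example, chr11:35116337-35116593 near CD44 held 2 and 2 counts and chr12:54411265-54411826 in ITGA5 held 8 and 0. The CTCF calls at 72 h were also not stable, as given above, so the 7 of 7 is not read as a trait of these genes. At 72 h the share of higher H3K27ac over higher Jun thus lay near that of the whole table.

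Peaks called by the authors in single libraries were counted at the same regions. H3K27ac peaks stood in both libraries at 41 of the 149 regions at 0 h, 35 at 6 h and 73 at 72 h, or 27.5%, 23.5% and 49.0%, against 29.2%, 24.1% and 48.0% over all regions. For Jun the counts were 29, 32 and 113 of 189, or 15.3%, 16.9% and 59.8% (18.0%, 13.2% and 56.2% over all). Regions with peaks in both libraries at 6 and at 72 h but not in both at 0 h were 7.38% for H3K27ac and 10.1% for Jun, against 3.93% and 4.16% over all regions. For CTCF 27, 17 and 25 of 63 regions had peaks in both libraries, or 42.9%, 27% and 39.7% (34.6%, 23.1% and 36.1% over all). For Rad21 the counts were 22 and 23 of 130, or 16.9% and 17.7% (18.7% and 15.1% over all).

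Other genes of adhesion, taken from lists of the pathway, moved in both directions, with TMM scaling throughout and other scalings not run for them. Of 15 other integrin subunit genes 14 had a tested H3K27ac window, 7 higher and 4 lower at 72 h (median log2 fold change 0.22, against -0.30 over all gene windows, of which 35.1% were higher and 53.1% lower, to be read beside each H3K27ac count that follows). ITGB6, of an epithelial fibronectin receptor, led with 6.38 (SE 0.13), from 1.98 ± 0.57 to 165 ± 16.5 CPM, followed by ITGA3, of a laminin receptor, with 3.76 (SE 0.088). The lowest were ITGA8 at -1.13 (SE 0.074) and the leukocyte subunit ITGAL at -0.49 (SE 0.075). The windows of ITGA1 and ITGAD overlap those of ITGA2 and ITGAX. Jun windows of these subunits were higher for 5 and lower for 3 of 14, with ITGB6 at 2.30 and ITGA1 at 1.40, and ITGAL at -0.74 and ITGA10 at -0.66. Rad21 windows were higher for 6 and lower for 0 of 15, led by ITGB6 (1.36) and ITGA11 (0.98), and CTCF windows were called for 0 of 15.

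Adaptors that bind integrin tails or the adhesion plaque had 12 of 21 H3K27ac windows higher and 7 lower at 72 h (median 0.24). FERMT2, a kindlin that activates integrins, rose by 5.17 (SE 0.41) from a single region and TLN2, a talin, by 3.97 (SE 0.13), while the actin crosslinker ACTN4 was at -0.74 (SE 0.075) and PARVB at -0.63 (SE 0.066). For Jun 6 adaptor windows were higher and 10 lower, with TLN2 at 2.32 and TNS3 at 1.55, and FLNA at -1.11 and FERMT3 at -0.95. Of 15 ligand genes 7 windows were higher and 8 lower in H3K27ac (median -0.60). The basement membrane collagen COL4A1 was at 4.46 (SE 0.20), whereas VCAM1, a counter-receptor of leukocyte integrins, was at -4.84 (SE 0.13) and CDH1 (E-cadherin) at -1.31 (SE 0.083). Jun windows of the ligands were higher for 6 and lower for 6. Of 6 tested genes tied to CD44, 2 were higher and 3 lower: MSN (moesin) at 0.60 and HAS1 (a hyaluronan synthase) at 0.34, and EZR (ezrin) at -0.88 and SRGN (serglycin) at -0.27.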

How the data were processed

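CUT&RUN libraries of 4 antibodies in K562 cells were analysed from the authors' deposited region tables and peak lists. The tables hold raw read counts per region and library, made by the authors, with the authors' deposited log2 fold changes and p-values beside them. The peak lists give a fold enrichment ratio and −log10 p and q per peak and library, per the file headers and format of the deposited lists. Trim Galore 0.4.3, BWA 0.7.17, SAMtools 1.9, MACS2, bedtools 2.26 and deepTools 3.0.1 are named in the submitters' processing notes, which also name the builds hg19 and hg38. Coordinates reach beyond the end of chromosomes in hg19 and were read as hg38, and printed starts are 1 above the deposited ones.

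Counts were tested with edgeR 4.0.16 (R 4.3.3) over all regions of a table: filterByExpr, TMM, robust quasi-likelihood fit over all times of an antibody, Benjamini-Hochberg adjustment, threshold 0.05. SE is the absolute log2 fold change over the square root of F. Window sums added the region counts over each gene span and 50 kb on either side, for all genes. A peak was counted where the deposited peaks of both libraries overlapped the region by at least 1 bp. The code was tested on simulated counts with 200 changes of 4-fold at 72 h. False calls made up 5.84% (CTCF regions) to 11.8% (H3K27ac windows) of the calls, above the 0.05 threshold. Of the 200 changes, 122 (Rad21 regions) to 196 (Jun windows) were recovered. Named regions were, per gene and antibody, the promoter region of highest mean CPM (within 1 kb of the promoter) and, of regions called at 72 h with mean CPM at or above the table's median and libraries that did not overlap between 0 and 72 h, those of largest and smallest log2 fold change; for CTCF and Rad21 only the 3 largest and 3 smallest over all genes; for other adhesion genes the 2 largest and 2 smallest per list, of which 1 is not reported here. The genes and lists were chosen with earlier results of these data known. Alternatives were other scalings (total counts, loess, factors set on regions that carried peaks throughout), DESeq2 1.42.0, other filters, other flank lengths, a replicate block and each library left out. Replicate numbers did not pair the samples (correlations of deviations from -0.022 to 0.12, with only 2 numbers).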

Additional observations from a re-analysis of the deposited data

Results flagged for a closer look

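The H3K27ac window of ITGA2 changed in opposite directions at the 2 times: both 6 h libraries lay below both 0 h libraries (log2 fold change -0.22) and both 72 h libraries lay above them (1.43). The difference between 72 and 6 h was tested directly and was 1.66 (SE 0.069, edgeR adjusted p = 4.05e-23). The value at 6 h was 0.11 by total counts, 0.066 with loess offsets and 2.21 within the gene span alone.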

How the results depend on the processing

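Counts of called regions depended on the flank: with 0 kb there were 32, 35 and 27 for H3K27ac (6 and 72 h against 0 h, 72 against 6 h), 24, 43 and 22 for Jun, 0 and 4 for CTCF and 11 for Rad21. With 10 kb they were 57, 61 and 48 for H3K27ac, 40, 63 and 33 for Jun and 21 for Rad21, and with 100 kb 186 for H3K27ac at 72 h. DESeq2 called 38 Jun regions at 6 h, 32 between 6 and 72 h, 1 CTCF region at 72 h and 17 Rad21 regions. A mean count of at least 50 left 1 CTCF and 7 Rad21 calls, loess 1 CTCF call, and the fit of only 0 and 72 h 19 CTCF calls. Called Jun windows were 8 at 6 and 8 at 72 h with loess, 9 at 72 h by total counts and 8 in the gene span alone. With peaks of −log10 q of at least 10, regions with peaks were 26, 17 and 44 for H3K27ac, 19, 14 and 73 for Jun, 15 and 11 for CTCF (0 and 6 h) and 7 and 6 for Rad21.

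With each library left out in turn, H3K27ac calls ranged from 92 to 108, 113 to 123 and 83 to 101, Jun from 46 to 56, 72 to 122 and 19 to 64, CTCF from 0 to 2 and 0 to 18, Rad21 from 18 to 39, H3K27ac windows from 6 to 9 and 8 to 9, and Jun windows from 3 to 6 at both times. Jun calls between 6 and 72 h were 39 without 6 h replicate 2, 28 without 72 h replicate 1 and 19 without 72 h replicate 2. Jun windows numbered 3 at 6 h without 0 h replicate 1 or 6 h replicate 2 and 3 at 72 h without 72 h replicate 2.

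With the replicate block, calls were 111, 122 and 97 for H3K27ac, 58, 106 and 55 for Jun, 1 and 14 for CTCF and 36 for Rad21, and windows 7 and 9 for H3K27ac and 5 and 5 for Jun. No count of calls moved by over 1.5 times under the block.

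Signs turned in these cases, and the cause was not tested. By total counts, H3K27ac windows at 6 h were 0.11 (ITGA2), 0.28 (ITGB1), 0.25 (ITGAM) and 0.0077 (ITGB2), ITGB2 at 72 h was 0.17, and Jun windows at 72 h were 0.55 (ITGA6), 0.53 (ITGAV), 0.29 (ITGB7), 0.40 (ITGA5), 0.49 (ITGAM) and 0.18 (ITGB2). With loess, H3K27ac windows at 6 h were 0.066 (ITGA2), 0.39 (ITGB1) and 0.026 (ITGB2), ITGB2 at 72 h was 0.39, and Jun windows at 72 h were 0.42 (ITGA6), 0.37 (ITGAV), 0.036 (ITGB7), 0.27 (ITGA5), 0.29 (ITGAM) and 0.043 (ITGB2). In the gene span alone, H3K27ac was 2.21 (ITGA2), 3.28 (ITGAM) and 1.70 (ITGB2) at 6 h and -0.49 (ITGB1) and 2.90 (ITGB2) at 72 h, and Jun was -0.28 (ITGB1) and 1.00 (ITGB2) at 6 h and 1.42 (ITGA6), -0.73 (ITGB1), 0.81 (ITGAM) and 0.70 (ITGB2) at 72 h. The H3K27ac promoter region of ITGA5 was 0.036 (total counts), 0.052 (peak in every library) and 0.10 (loess) at 6 h and 0.48 and 0.41 under the latter settings at 72 h. That of ITGB1 was, in the same order, 0.0079, 0.024 and 0.22 at 6 h, then 0.51 and 0.55 at 72 h. The region chr12:54358130-54360524 near ITGA5 was 0.066 with loess at 6 h, and 0.18 with loess and 0.18 with factors from peaks in every library at 72 h.

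Scaling also moved the share of calls that were higher. By total counts and by factors set on regions that carried peaks throughout it was 85.8% and 87.4% for H3K27ac at 6 h (75.5% with TMM), 91.0% and 93.0% for Jun at 72 h (72.1%) and 87.8% and 93.0% for Jun between 6 and 72 h (61.3%, with 74.5% under loess and 50% under DESeq2), and the factors from peak-carrying regions gave 89.5% for H3K27ac between 6 and 72 h (75.5%). For CTCF at 72 h it was 100% under both and with loess or DESeq2 (72.7% with TMM), and for Rad21 100% with DESeq2 (85.3%).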

Other observations

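The authors' deposited table for H3K27ac gives each region a class name as well as log2 fold changes. Of 15 regions near these genes that the authors' deposited table names downEarly, 14 have a log2 fold change at 72 h above 0 in that table, as do 6 of 6 named downLate. In the authors' deposited table as a whole, 5503 of 7711 regions named downEarly (71.4%) are above 0. In the authors' deposited table for Rad21, 1898 of 1898 regions named up and 0 of 87 named down are above 0. The class names were not used here.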
